A study of Mus musculus with 24 samples.

Results

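The expression of 10 genes of the complement system and of phagocytic microglia was followed in nuclei of the mouse hippocampus 24 hours after an intracortical injection of kainic acid. They were taken by name, and all 10 were among the 53379 genes of the count table and among the 37598 genes that passed the filter on low counts. Of these, 5 encode complement components: the C1q chains C1qa, C1qb and C1qc, and the components C3 and C4b. The rest encode receptors or an adaptor, namely the anaphylatoxin receptors C3ar1 and C5ar1, the complement receptor chain Itgam (CD11b), Trem2 and its adaptor Tyrobp.

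The animals were male C57/BL6N mice, bought at 8 weeks and kept for 4 more weeks before surgery. They were given 70 nl of 20 mM kainic acid (KA) next to the right hippocampus, or 0.9% NaCl as the sham group (SH), and the study dropped KA animals that had no convulsive seizure. Right hippocampi of 8 mice per treatment were pooled into 3 samples, of which replicate 1 combined 4 mice and replicates 2 and 3 combined 2 mice each. The nuclear antigen NeuN was used to sort every pool into neurons (NeuN+) and glia (NeuN-), giving 4 groups of 3 libraries: SH glia, KA glia, SH neurons and KA neurons. The glia fraction holds every nucleus without NeuN, so microglia are one part of it beside astrocytes, oligodendrocytes and their precursors, and vascular cells.

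In the classical complement pathway, C1q recognizes tagged surfaces, C4 and C3 are cleaved and deposited on them, and the released fragments C3a and C5a act on the receptors C3ar1 and C5ar1. Itgam pairs with Itgb2 to form complement receptor 3, through which microglia take up material coated with C3 fragments, including synapses during development. Trem2 senses lipids and apolipoproteins on the microglial surface and signals through the adaptor Tyrobp. In the brain C1q is made mainly by microglia, whereas C4b is also made by astrocytes and oligodendrocytes.

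The genes lie on 4 chromosomes (GRCm38, GENCODE release M21). C1qb, C1qc and C1qa are neighbours on the minus strand of chromosome 4, at chr4:136880129-136886187, chr4:136889804-136893065 and chr4:136895917-136898803. C3 (chr17:57203970-57228136, minus strand), C4b (chr17:34728380-34743882, minus strand) and Trem2 (chr17:48346401-48354147, plus strand) lie on chromosome 17. C5ar1 (chr7:16246743-16259540, minus strand), Tyrobp (chr7:30413760-30417585, plus strand) and Itgam (chr7:128062640-128118491, plus strand) lie on chromosome 7, and C3ar1 (chr6:122847138-122856161, minus strand) lies on chromosome 6.

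Read assignment is uncertain for 2 of the genes. Of the 50-base words in annotated C4b transcripts, 34.57% also occur in C4a, its near-identical neighbour, so reads could be split between them or lost. Itgam shares 68.67% of its exon bases with the same-strand gene Gm49368 in release M21. Gm49368 is also in the count table, but its exons in the release used for counting were not checked. Reads that fall in both genes would be left out under default settings. The other 8 genes shared none of their 50-base words with another gene.

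Promoter windows of RefSeq genes (250 bases before to 50 after the start, GRCm38.p6) were matched for 7 of the 10 genes: C1qb, C1qc, C3, C3ar1, C5ar1, Itgam and Trem2. They were searched on both strands for GAGGAA, a purine-rich core bound by the myeloid factor PU.1, for the AP-1 motif TGANTCA and for the STAT motif TTCNNNGAA. GAGGAA occurred in 4 of the 7 windows against 28.3% of all 32851 promoter windows. TGANTCA occurred in 2 of the 7, against 7.81% of all windows, and TTCNNNGAA in 0 of the 7, against 8.3%. A match of letters is a description and not a bound site. The 100 bases before the start are shown for 4 genes that hold a match there, so that the position of the motifs can be seen; capitals mark GAGGAA or TGANTCA, or their reverse complements.
C1qb, chr4:136886201-136886300, minus strand: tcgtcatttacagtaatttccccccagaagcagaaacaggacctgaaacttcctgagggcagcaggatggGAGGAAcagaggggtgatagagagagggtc
Itgam, chr7:128062540-128062639, plus strand: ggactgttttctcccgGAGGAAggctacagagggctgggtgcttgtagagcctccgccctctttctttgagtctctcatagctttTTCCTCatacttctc
Trem2, chr17:48346301-48346400, plus strand: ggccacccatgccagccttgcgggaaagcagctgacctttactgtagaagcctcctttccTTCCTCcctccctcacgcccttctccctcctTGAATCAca
C3ar1, chr6:122856158-122856257, minus strand: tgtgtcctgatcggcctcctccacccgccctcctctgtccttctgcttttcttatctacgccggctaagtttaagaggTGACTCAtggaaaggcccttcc
Further GAGGAA matches lay outside the printed stretches, in C1qc 193 bases before the start and in Itgam after the start. The AP-1 motif began 22 bases before the start in C3ar1 and 9 bases before it in Trem2, the first of which was upregulated in KA glia with the replicate block while the second was not, as given below.

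Library totals ranged from 11092113 to 40364768 counts in SH glia, from 7769400 to 28721556 in KA glia, from 17786473 to 36959237 in SH neurons and from 11232035 to 32429530 in KA neurons. SH glia replicate 1 and KA glia replicate 2 were made from 0.05 ng RNA with 15 PCR cycles, and the others from 1 ng with 10 cycles. Between 36165 and 47748 genes had a count in each library, with the fewest in SH glia replicate 3. Summed homeostatic microglia markers reached 1227 to 2976 CPM (counts scaled to library size) in SH glia and 792 to 1774 CPM in KA glia. Levels below are CPM after scaling by the trimmed mean of M values (TMM), and logFC is the log2 fold change of KA against SH, or of glia against neurons, from edgeR.

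The glia fraction was marked by 9 of the 10 genes, and C3 was the exception. The 9 genes were higher in glia than in neurons of SH mice at a false discovery rate (FDR) below 0.05 (edgeR quasi-likelihood test), where 4.67% of all tested genes were. The same 9 were higher in glia of KA mice, where 3.98% of all tested genes were. In SH, logFC was 4.77 ± 0.57 (SE) for C1qa, 5.19 ± 0.71 for Itgam, and lowest for C3ar1 at 3.51 ± 0.48. For all 9 genes the 3 glia libraries lay above the 3 neuron libraries in both treatments. The share of all tested genes with such a separation was not computed.

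Relative to glia of the same pool, neurons held a median of 4.29% of the C1qa level, 4.07% of C1qb, 4.08% of C1qc, 3.98% of Trem2 and 3.33% of Itgam. The share was 4.55% for C4b, 4.75% for C5ar1, 6.49% for Tyrobp and 8.92% for C3ar1. Homeostatic microglia markers, which neurons lack, were at a median of 5.88% over the 12 markers, from 2.69% for Cx3cr1 to 49.6% for Aif1. Aif1 was at only 3.04 CPM in SH glia, and the next highest marker was Gpr34 at 9.46%. The 9 genes lay within the range of these markers, also without Aif1, and values in neurons below are to be read against that background. C3 stood apart at a median of 96.4%.

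**Figure D1:**
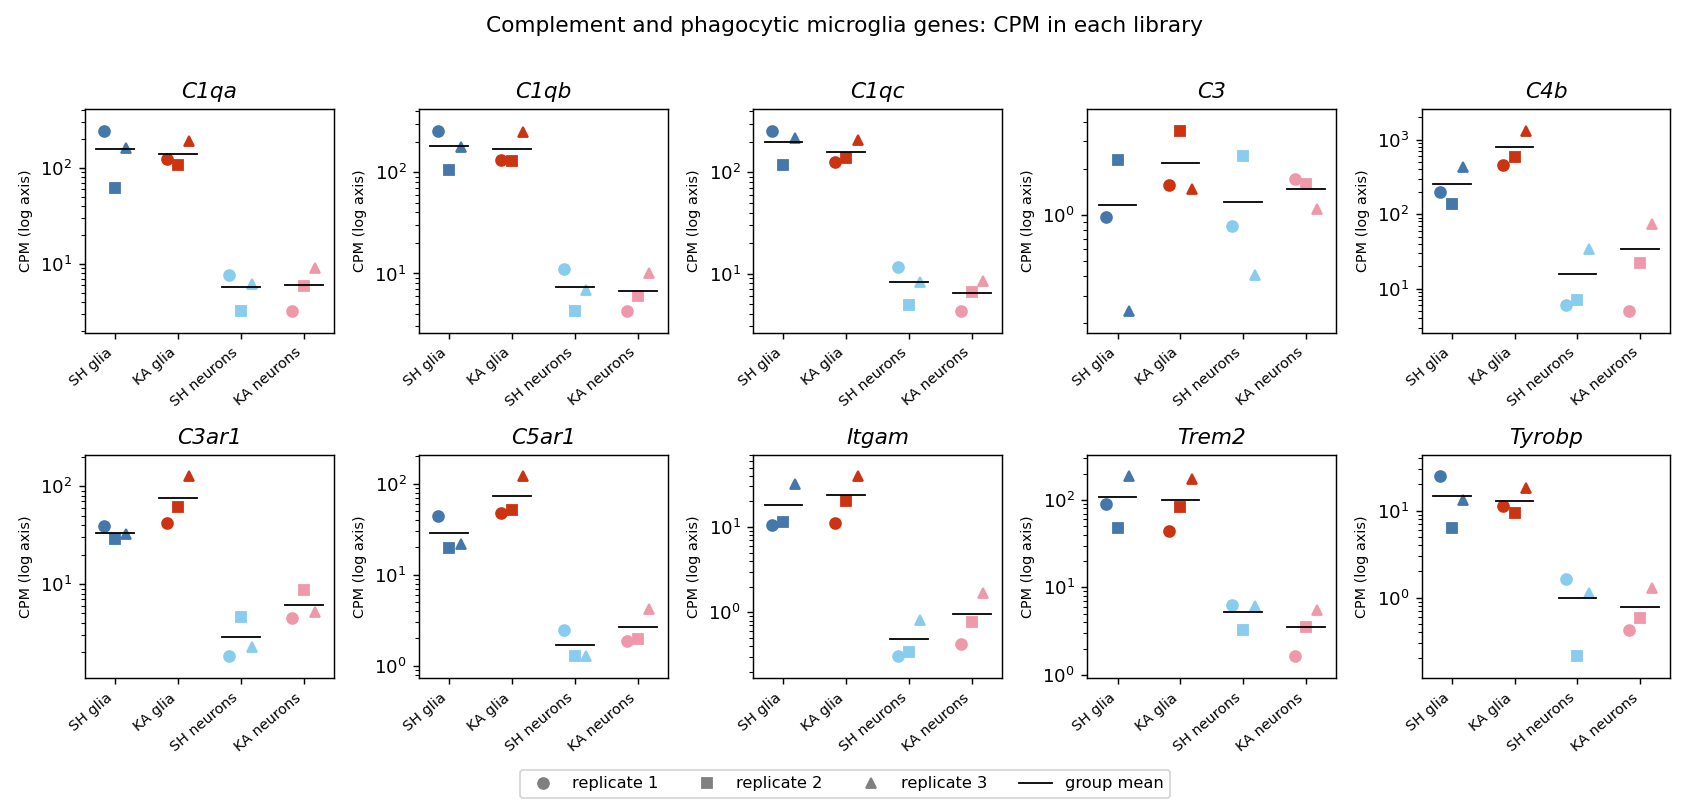
Level of each gene in each of the 12 libraries, in CPM on a log axis. Points are libraries with a symbol for each replicate number, and black lines are group means of 3 libraries. The 9 genes other than C3 lie higher in glia than in neurons, C3 has group means of 1.16 to 2.19 CPM, and in C4b, C3ar1 and C5ar1 the KA glia libraries lie above the SH glia libraries.

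In glia after KA, C4b, C3ar1 and C5ar1 had the largest logFC, with C3 (0.92) and Itgam (0.38) below them. Those of the C1q chains, Trem2 and Tyrobp were close to 0, from -0.32 to -0.09. In the fit of all 12 libraries without pairing, 0 of the 10 genes passed FDR 0.25 (edgeR), where 0.747% of all tested genes did in either direction. At an unadjusted p below 0.05 there were 2 of 10, C3ar1 and C5ar1, against 4.79% of all tested genes. The median logFC of the 10 genes was 0.15, beside 0.14 over all tested genes.

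The replicate numbers were taken to pair the libraries, since same-numbered KA and SH libraries deviated together from their group means. Libraries of unlike number were not compared, so this pairing is an assumption on which the blocked calls rest. With the replicate number as a block, 3 of 10 genes were upregulated in glia at FDR 0.25, against 3.47% of all tested genes, and 0 were downregulated, against 4.17%. The 3 genes were C4b, C3ar1 and C5ar1. They were also the 3 genes whose KA glia libraries all lay above all SH glia libraries, which held for 3.61% of all tested genes. DESeq2 without the block called C3ar1 and C5ar1, 2 of 10, against 5.88% of the genes it gave an adjusted p. C3 was given none.

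C4b encodes the component that C1 cleaves first. It stood at 200, 135 and 428 CPM in SH glia replicates 1 to 3 and at 460, 587 and 1318 CPM in KA glia. Every KA library was above every SH library, and replicate 3 was the highest in both treatments. The group means were 254 ± 154 CPM (SD, n = 3) in SH and 788 ± 463 CPM in KA. Without the block logFC was 1.63 ± 0.81 (SE) with an FDR of 1 (edgeR), and with the block it was 1.65 ± 0.29 with an FDR of 0.00313. The log2 ratios within the same-numbered pairs were 1.20, 2.12 and 1.62.

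C4a, which shares sequence with C4b, also differed, from 27.4 ± 12.4 CPM in SH glia to 77.6 ± 28.3 CPM in KA glia (logFC 1.504, edgeR FDR 0.476 without and 0.00254 with the block). How many reads belong to which of the 2 genes was not tested. Astrocytes also make C4b, and of 10 astrocyte markers Gfap was upregulated with the block (logFC 1.90, edgeR FDR 0.00142) while 7 were downregulated with it. Their part in the C4b result was not tested.

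C3ar1, the receptor for C3a, stood at 38.8, 28.9 and 32.3 CPM in SH glia and at 42.1, 60.8 and 127 CPM in KA glia. The groups did not overlap, but KA replicate 1 was only just above the highest SH library. Without the block logFC was 1.20 ± 0.43 (unadjusted p = 0.0132, edgeR FDR 0.665), and with the block it was 1.06 ± 0.31 (edgeR FDR 0.0907). The pairs differed widely, with log2 ratios of 0.12, 1.07 and 1.97.

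C5ar1, the receptor for C5a, had a like pattern. Its levels were 44.7, 19.7 and 21.8 CPM in SH glia and 47.6, 51.6 and 121 CPM in KA glia. Again KA replicate 1 was just above the highest SH library, and replicate 3 was the highest in KA. Without the block logFC was 1.35 ± 0.46 (unadjusted p = 0.0098, edgeR FDR 0.579), and with the block it was 1.32 ± 0.40 (edgeR FDR 0.0953). Without SH glia replicate 1, a low-input library, C5ar1 passed the threshold also without the block (logFC 1.89, edgeR FDR 0.233). That was the only 1 of 6 fits without 1 glia library in which it passed. Without both low-input libraries it did not pass (logFC 1.94, edgeR FDR 0.974).

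The blocked calls of the receptors were lost without the replicate 3 pools, where far fewer genes were called in all. When same-numbered libraries were left out in turn, a check chosen after seeing the data, the 3 genes were called without replicate 1, against 2.83% of all tested genes upregulated, and without replicate 2, against 5.18%. Without replicate 3 only C4b was called (logFC 1.65, edgeR FDR 0.238), against 0.352%. There C3ar1 had a logFC of 0.59 (edgeR FDR 0.685) and C5ar1 of 0.73 (edgeR FDR 0.659). In each of the 4 groups replicate 3 had the fewest genes with a count, from 36165 in SH glia to 42160 in KA neurons, and the lowest TMM factor, from 0.66 in SH neurons to 0.85 in KA glia. The part of this in the receptor result was not tested.

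The C1q chains form 1 molecule in equal parts, and their levels varied together. C1qa stood at 243, 61.9 and 162 CPM in SH glia and at 124, 107 and 191 CPM in KA glia. C1qb stood at 256, 106 and 176 CPM in SH glia and at 130, 127 and 247 CPM in KA glia. C1qc stood at 257, 117 and 220 CPM in SH glia and at 126, 140 and 210 CPM in KA glia. The treatments overlapped for each chain, SH replicate 2 was the lowest SH library and KA replicate 3 the highest KA library.

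For C1qa, logFC was -0.14, with a 95% interval from -1.16 to 0.88. It was -0.09 for C1qb (-1.04 to 0.86) and -0.32 for C1qc (-1.18 to 0.54), all with an edgeR FDR of 1. A difference within these intervals was not detectable, which does not show that it was absent. KA was below SH in pair 1 for all 3 chains (log2 ratios of -0.97, -0.98 and -1.03) and above it in pair 2 (0.80, 0.27 and 0.25). Per kilobase of exon, C1qa was 0.61 to 0.99 of C1qb and C1qc was 0.48 to 0.70 of C1qb over the 6 glia libraries, with the lowest C1qa share in SH replicate 2.

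Tyrobp followed the C1q chains across the glia libraries. Its levels were 24.8, 6.33 and 13.2 CPM in SH glia and 11.4, 9.25 and 18.04 CPM in KA glia. The treatments overlapped and logFC was -0.19 (95% interval -1.50 to 1.11). Over the 6 glia libraries the log2 levels of Tyrobp and C1qa had a Pearson correlation of 0.98, those of C1qa and C1qb of 0.94, and those of C3ar1 and C5ar1 of 0.94. C4b and C3ar1 were correlated at 0.87 and C4b and C1qc at 0.20. These are descriptions over libraries that share treatment, depth and pool.

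Trem2, the partner of Tyrobp, stood at 88.8, 48.2 and 187 CPM in SH glia and at 44.4, 82.4 and 174 CPM in KA glia. Replicate 3 was the highest in both treatments and the groups overlapped almost fully. Its logFC was -0.11 (95% interval -1.25 to 1.04). Itgam stood at 10.6, 11.6 and 32.2 CPM in SH glia and at 11.1, 20.4 and 39.5 CPM in KA glia, with a logFC of 0.38 (95% interval -0.82 to 1.59). Each KA library was above the SH library of the same number for Itgam, but the treatments overlapped. Its partner Itgb2 went from 34.4 ± 6.2 CPM to 49.2 ± 20.6 CPM (logFC 0.52, edgeR FDR 1).

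C3, the central component, was close to the limit of counting. It held 12, 47 and 8 counts in SH glia and 18, 92 and 36 in KA glia, which corresponds to 0.96, 2.29 and 0.24 CPM and to 1.56, 3.52 and 1.48 CPM. The groups overlapped, and logFC was 0.92 (95% interval -0.96 to 2.79) without the block and 1.25 (edgeR FDR 0.422) with it. In neurons C3 was at 0.41 to 2.40 CPM in SH and at 1.09 to 1.71 CPM in KA.

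**Figure D2:**
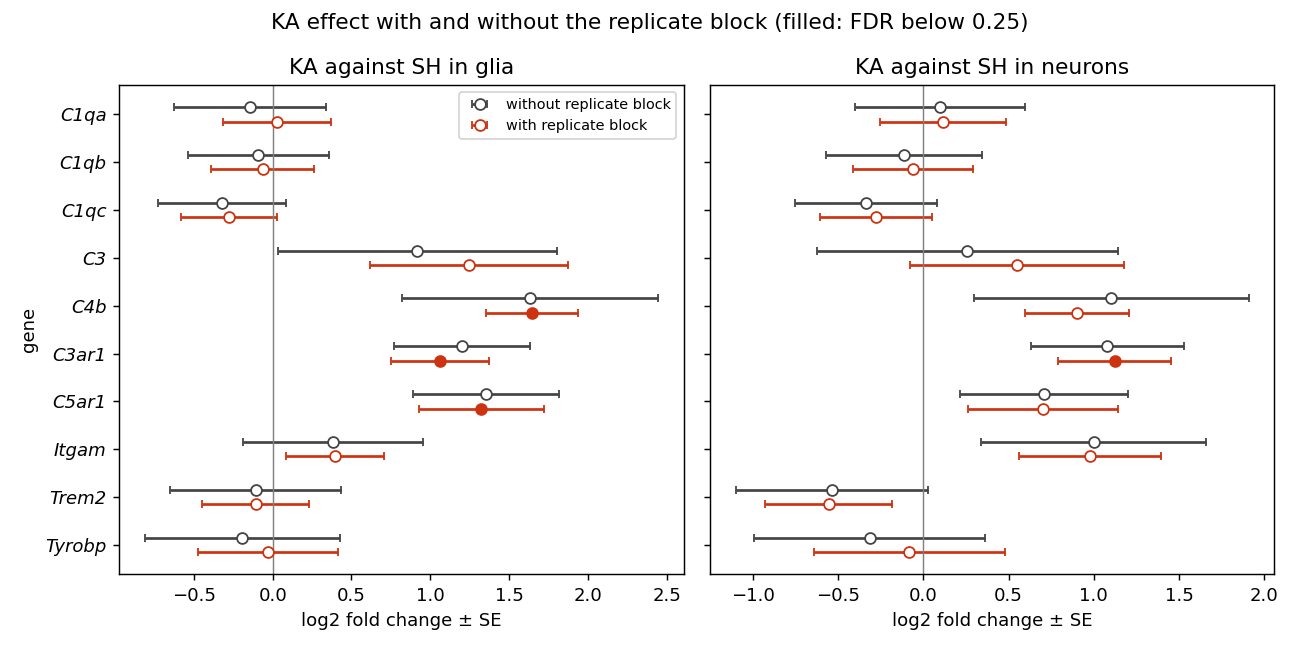
log2 fold change of KA against SH in glia and in neurons for each gene, with bars of 1 SE, without the replicate block (dark) and with it (red). Filled points passed FDR 0.25: C4b (1.65), C3ar1 (1.06) and C5ar1 (1.32) in glia and C3ar1 (1.12) in neurons, all with the block, and 0 points without it.

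In neurons, C3ar1 was the only one of the 10 genes to pass, and only with the block. Without the block 0 of 10 genes passed FDR 0.25 (edgeR), where 0.34% of all tested genes did. At an unadjusted p below 0.05 there was 1 of 10, C3ar1, against 3.2% of all tested genes. With the block 1 of 10 was upregulated, against 1.94% of all tested genes. The KA neuron libraries lay above the SH neuron libraries for 0 of 10 genes, against 5.27% of all tested genes, and the median logFC was 0.18, beside 0.00048 over all tested genes.

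C3ar1 stood at 1.82, 4.59 and 2.29 CPM in SH neurons and at 4.53, 8.64 and 5.23 CPM in KA neurons. Each KA library was above its same-numbered SH library, although the lowest KA value was below the highest SH value. Its logFC was 1.08 ± 0.45 (edgeR FDR 1) without the block and 1.12 ± 0.33 (edgeR FDR 0.136) with it. With the block and without the replicate 3 pools logFC was still 1.09, but the FDR was 0.967, where 0.268% of all tested genes were upregulated. C4b stood at 6.05, 7.17 and 33.8 CPM in SH neurons and at 5.04, 22.4 and 73.7 CPM in KA neurons (logFC 0.90, edgeR FDR 0.262 with the block), and with the block it passed without the replicate 1 pools (edgeR FDR 0.00248), as did C5ar1 (edgeR FDR 0.0534), against 2.35% of all tested genes upregulated. Without the replicate 2 pools C3ar1 alone passed, against 2.55%.

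The KA effect was compared between glia and neurons in one fit. The glia and neuron libraries of the same pool were treated as independent in it. The block here is the replicate number within each cell type and does not pair them either. The difference passed FDR 0.25 for 0 of the 10 genes and for 0 (0%) of all tested genes (edgeR). At an unadjusted p below 0.05 there were 0 of 10, against 1.34% of all tested genes, and with the block and with DESeq2 the count at FDR 0.25 was also 0 of 10. The difference was 0.53 (95% interval -1.85 to 2.91) for C4b, 0.12 (-1.20 to 1.44) for C3ar1 and 0.65 (-0.78 to 2.07) for C5ar1.

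Markers of resting microglia were lower in KA glia. Of 12 homeostatic microglia markers, 3 were downregulated in glia at FDR 0.25 (edgeR) and 0 were upregulated. P2ry12, the ADP receptor of resting microglia, went from 152 ± 83 CPM to 29.2 ± 10.0 CPM (logFC -2.38, edgeR FDR 0.0826). Siglech, a microglial lectin, went from 104 ± 56 CPM to 23.0 ± 1.9 CPM (logFC -2.18, edgeR FDR 0.0295), and Selplg from 193 ± 85 CPM to 48.6 ± 12.3 CPM (logFC -1.99, edgeR FDR 0.107). With the block 5 were downregulated and 1, Fcrls, was upregulated (logFC 0.83, edgeR FDR 0.229). Leaving out 1 glia library at a time kept Siglech past the threshold in 5 of 6 fits (not without KA replicate 2, FDR 0.256). P2ry12 was lost in 3 of 6 such fits, without SH replicate 3 (FDR 0.378), KA replicate 1 (0.371) or KA replicate 2 (0.503), and so was Selplg (0.466, 0.555 and 0.678). Of 8 markers shared by all states of microglia, 0 passed without the block and 1, Laptm5, was downregulated with it (logFC -0.64, edgeR FDR 0.19). Csf1r and Aif1 are in both marker lists. In these bulk samples, fewer microglia and less of an RNA per microglial nucleus cannot be told apart.

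Set against the geometric mean of the 12 homeostatic markers, each of the 10 genes was higher in KA glia than in SH glia on average. That mean was 97.9, 62.4 and 165 CPM in SH glia and 39.0, 50.7 and 76.4 CPM in KA glia. It includes P2ry12, Siglech and Selplg and was lower in KA in each same-numbered pair, so a gene with unchanged CPM rises on it. The C1q chains, Trem2 and Tyrobp had a logFC of -0.32 to -0.09, and their rise per marker is not a rise in CPM. The log2 level per marker of C4b went from 1.18 ± 0.18 (SD, n = 3) to 3.73 ± 0.33, a difference of 2.56. The differences were 2.23 for C5ar1, 1.97 for C3ar1, 1.30 for Itgam, 0.80 for Trem2 and 0.63 for C1qc. For these 6 of 10 genes the treatments did not overlap (exact two-sided permutation p = 0.1 for each, the smallest that 3 against 3 libraries can give), and the same held for 17.7% of all tested genes. Within the same-numbered pairs all 10 genes were higher per marker in KA, and so were 51.3% of all tested genes. For C1qa, C1qb, C3 and Tyrobp the treatments overlapped.

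The result depended on the markers used as the scale. Against the geometric mean of the 8 markers shared by microglial states, which was 40.5, 43.4 and 65.8 CPM in SH glia and 31.2, 45.1 and 74.7 CPM in KA glia, 3 of 10 genes did not overlap. These were C4b (difference 1.69), C5ar1 (1.36) and C3ar1 (1.10). The share of all tested genes without overlap was not computed on this scale. There the differences of C1qb (-0.025), C1qc (-0.24) and Trem2 (-0.064) turned negative. Csf1r and Aif1 enter both scales, Aif1 at means of only 3.04 CPM in SH glia and 2.29 CPM in KA glia.

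**Figure D3:**
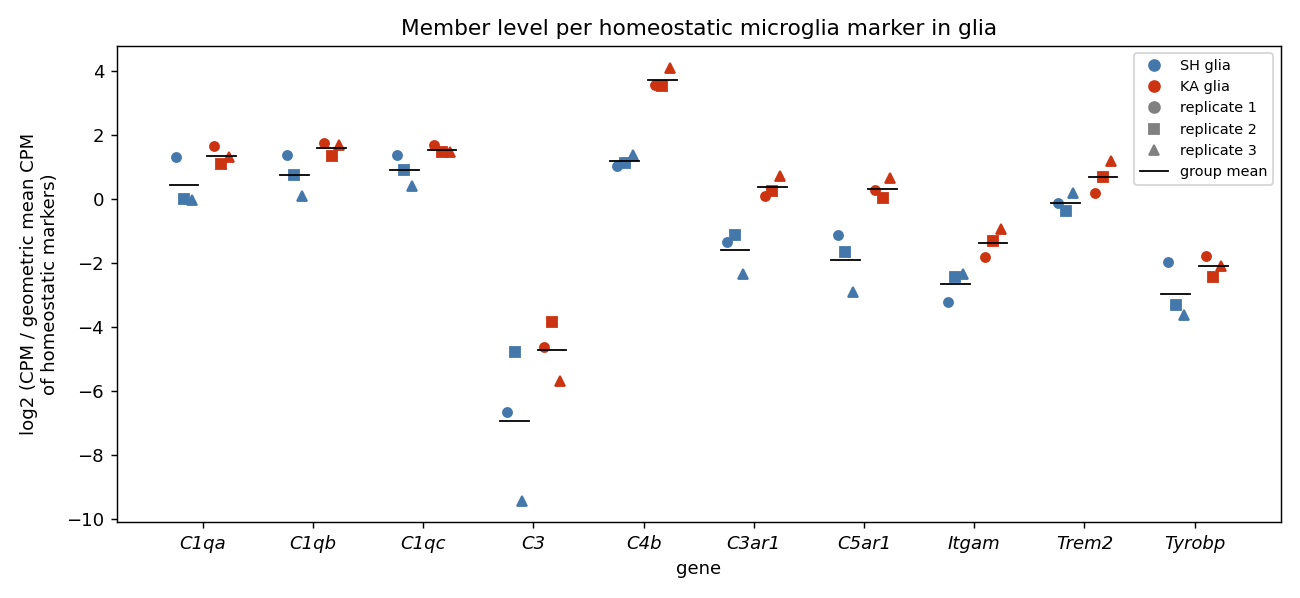
log2 of each gene's CPM divided by the geometric mean CPM of 12 homeostatic microglia markers in the same glia library. Points are libraries with a symbol for each replicate number, and black lines are means of 3. The KA points of C4b (mean 3.73), C3ar1 (0.37) and C5ar1 (0.32) lie above their SH points (1.18, -1.60 and -1.90).

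Other genes of the complement cascade showed few calls. Of 10 tested genes of complement initiation, 7 of the terminal pathway, 14 regulators and 8 receptors, 0 passed FDR 0.25 in glia or in neurons without the block. With the block C4a was upregulated in glia among the first group and 0 genes of the terminal pathway passed. Among the regulators 2 were upregulated and 4 downregulated in glia with it, the latter including Vtn, vitronectin (logFC -1.41, edgeR FDR 0.0273), and Csmd3 (logFC -0.97, edgeR FDR 0.0207). Clu, clusterin, was the most abundant regulator at 694 ± 325 CPM in SH glia and 442 ± 185 CPM in KA glia (logFC -0.65, edgeR FDR 1 without and 0.232 with the block). The most abundant of the other receptors, Lrp1, was at 676 ± 244 CPM and 728 ± 438 CPM.

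Among 20 other phagocytosis receptors and bridging molecules, 2 were upregulated in glia without the block and 1 in neurons. Msr1, the scavenger receptor A, went from 5.73 ± 5.73 CPM in SH glia to 88.7 ± 65.9 CPM in KA glia (logFC 3.98 ± 0.81, edgeR FDR 0.0637). It stayed past the threshold in 6 of 6 fits that left out 1 glia library, with an FDR of 0.0192 to 0.247, but not without all 4 libraries of replicate 3 (logFC 2.69, edgeR FDR 0.357). Cd14, a coreceptor for lipopolysaccharide, went from 26.8 ± 3.2 CPM to 109 ± 81 CPM (logFC 2.03 ± 0.54, edgeR FDR 0.24), but was kept in only 1 of 6 such fits, the one without KA replicate 1. Pros1, protein S, a bridge between dying cells and TAM receptors, was upregulated in neurons from 4.49 ± 1.31 CPM to 23.5 ± 13.9 CPM (logFC 2.39 ± 0.46, edgeR FDR 0.0742), and was kept in 2 of 6 fits that left out 1 neuron library, those without KA replicate 1 or KA replicate 2. Its logFC was 1.85 to 2.74 over these 6 fits. In glia Pros1 went from 56.8 ± 14.1 CPM to 146 ± 56 CPM, the treatments did not overlap, and logFC was 1.36 (edgeR FDR 0.469 without and 0.0252 with the block). With the block 5 of the 20 were upregulated and 3 downregulated in glia, the latter including the TAM receptor Tyro3 (logFC -1.34, edgeR FDR 0.00299) and Megf10 (logFC -1.30, edgeR FDR 0.00872).

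Genes linked to Trem2 signalling and genes of the phagolysosome showed 0 of 12 and 0 of 17 calls in glia at FDR 0.25 without the block. The first list is not limited to genes downstream of Trem2, as it holds Apoe, Trem1 and Treml2. With the block, 1 gene of Trem2 signalling was downregulated, the lipid carrier and Trem2 ligand Apoe (1888 ± 1275 CPM to 567 ± 300.5 CPM, logFC -1.64, edgeR FDR 0.000612). Which cell types of the glia fraction held the Apoe RNA was not tested. Of the phagolysosome genes 5 were upregulated with the block, among them Cybb, the catalytic subunit of the NADPH oxidase (logFC 2.00, edgeR FDR 0.0705), Gpnmb (0.78, 0.174) and the cathepsin Ctsb (0.71, 0.182), and 1, Lamp1, was downregulated (logFC -0.70, edgeR FDR 0.151). In neurons 1 gene of Trem2 signalling was upregulated with the block, the kinase Syk (logFC 1.40, edgeR FDR 0.0218), and 1, Apoe, was downregulated (logFC -0.91, edgeR FDR 0.0643), while 1 of the 17 phagolysosome genes, Gpnmb, was upregulated (logFC 1.31, edgeR FDR 0.0203).

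Markers of border macrophages and leukocytes were low. The 6 markers of border macrophages summed to 13.6 to 18.6 CPM in SH glia and 17.9 to 23.7 CPM in KA glia, and the 10 leukocyte markers to 6.34 to 30.1 CPM and 9.35 to 51.6 CPM. Without the block 0 of 6 and 0 of 8 tested markers passed FDR 0.25 in glia, and with it 1 of each was upregulated, Lyve1 (logFC 1.29, edgeR FDR 0.245) and Ms4a1 (logFC 1.17, edgeR FDR 0.218). Their part in the results above was not tested.

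Markers of the other cell types of the glia fraction also differed. Without the block 1 of 10 astrocyte markers, Aldoc (logFC -1.76, edgeR FDR 0.245), and 1 of 5 markers of oligodendrocyte precursors, Cspg4 (logFC -1.44, edgeR FDR 0.24), were downregulated in glia. Aldoc was kept in 2 of 6 fits without 1 glia library and Cspg4 in 1 of 6. Without the block 0 of 8 oligodendrocyte, 0 of 7 endothelial, 0 of 5 pericyte and 0 of 15 neuronal markers passed. With it, 4 of 8 oligodendrocyte markers, 4 of 5 precursor markers and 1 neuronal marker, Snap25 (logFC -0.66, edgeR FDR 0.17), were downregulated, 1 endothelial marker, Tek (logFC 1.29, edgeR FDR 0.212), was upregulated, and 0 of 5 pericyte markers passed. Summed neuronal markers were at 671 to 2086 CPM in SH glia and at 582 to 1958 CPM in KA glia, and their part in the results was not tested.

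Genes with the most similar pattern were ranked by the Pearson correlation of their log2 CPM with the mean standardized profile of the 9 genes other than C3. Over all 12 libraries these were Fcrls (0.99), Tmed10-ps (0.99), Plpp2 (0.989), Prr5l (0.989) and Ctsz (0.989). Fcrls is a microglial Fc receptor-like gene and Ctsz a lysosomal cathepsin. Within the 6 glia libraries they were Mettl5os (0.995), 9530077C05Rik (0.992), Med18 (0.991), Gm44432 (0.99) and Gm37399 (0.99). Of these, Mettl5os, Gm44432 and Gm37399 stood at means of only 1.08, 2.36 and 2.06 CPM in glia. They were picked as the highest over all tested genes from only 6 libraries, and chance was not tested.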

How the data were processed

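Counts of 12 mRNAseq libraries of sorted nuclei were analysed; RRBS data were not used here. The authors trimmed reads with Trim Galore 0.4.3, aligned them to mm10 with Rsubread and counted reads per gene with featureCounts under default settings (strand ignored, reads in more than 1 gene left out) and GENCODE release M16. Libraries were run on one of 2 sequencers, and which is not given per library in the sources used here. The deposited values are raw counts; 0 columns lacked a sample. Symbols and positions came from GENCODE M21, and 105 genes without a symbol were left out.

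Genes were filtered with filterByExpr (minimum count 10, minimum total 15), scaled by TMM and tested in R 4.3.3 with the quasi-likelihood test of edgeR 4.0.16 (legacy setting; 4 group means over 12 libraries; Benjamini-Hochberg adjustment over 37598 genes). FDR thresholds were 0.25, the study's threshold, for KA against SH and 0.05 for glia against neurons. Standard errors and 95% intervals were derived from the test statistic. DESeq2 1.42.0 was an alternative, and the fits were tested on simulated data. The members and gene lists were chosen with earlier results of these data known. All 10 members are named; of each other list, genes past the threshold and the most abundant ones, with examples of blocked calls picked after their values were seen.

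Deviations from group means of same-numbered KA and SH libraries were correlated at 0.457, 0.543 and 0.764 in glia and at 0.399, 0.264 and 0.551 in neurons, over genes. The numbers were therefore taken to pair the samples, from the data and not from the labels. Correlations between libraries of unlike number were not computed, so the pairing remains an assumption. Each library is a pool of mice, so for KA against SH within a cell type p-values without the block measure the spread between pools. With the block they measure the spread of the KA against SH difference between same-numbered pairs. In the main fit the glia and neuron libraries of 1 pool were not paired, although their deviations from group means were correlated at 0.293 to 0.649. The p-values that compare cell types there do not measure the spread within pools. Counting error is small beside the spread between pools except at low counts, as for C3 and, in neurons, Itgam and Tyrobp.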

Additional observations from a re-analysis of the deposited data

How the results depend on the processing

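The count of 9 genes higher in glia than in neurons lay between 7 and 9 under every alternative in SH and in KA. It was 7 only with at least 10 counts in every library, a filter that Itgam and Tyrobp did not pass. The count of 0 for the difference of the KA effects was 0 under every alternative. The count of 0 genes called in glia became 3 with the replicate block and 2 with DESeq2. It became 2 with at least 10 counts in every library, where fewer genes were tested and the share of all genes called was not computed. With the block and the libraries of replicate 1, 2 or 3 left out it was 3, 3 and 1. Leaving out single libraries gave 0 to 1. In neurons the count became 1 with the block, and 3, 1 and 0 with the block and those libraries left out; single libraries gave 0 to 0. The count of 6 genes that did not overlap per homeostatic marker became 3 with pan-microglial markers and 6 to 9 without single libraries. The shares of all tested genes were not computed for these counts, and groups with a library left out separate more easily. With differences within pairs, the replicate block of that measure, the count was 10, against 51.3% of all tested genes. The block changed no call for the other members.

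Signs near 0 turned, and so did C4b in neurons, from 1.10 to -0.19 without KA neurons replicate 3. In glia with separate fits, C1qa was 0.0039 and C1qb 0.045. With the block C1qa was 0.029. Without both low-input libraries C1qa was 0.31, C1qb 0.29 and Tyrobp 0.42. With the block and without replicate 1, in glia C1qa was 0.415, C1qb 0.28, Trem2 0.23 and Tyrobp 0.39, and in neurons C1qb was 0.50, C1qc 0.21 and Tyrobp 0.63. In neurons C1qa was -0.23 without all replicate 3 libraries, and with the block -0.25 without replicate 2 and -0.15 without replicate 3. Without single libraries, logFC in glia ranged from -0.53 to 0.41 for C1qa, -0.48 to 0.34 for C1qb, -0.59 to 0.0065 for C1qc, -0.21 to 1.09 for Itgam, -0.78 to 0.55 for Trem2 and -0.56 to 0.48 for Tyrobp. In neurons it ranged from -0.31 to 0.39 for C1qa, -0.52 to 0.29 for C1qb, -0.16 to 1.23 for C3, -0.19 to 2.35 for C4b and -0.91 to 0.22 for Tyrobp. The causes were not tested. Scaling by size factors or the upper quartile turned no sign, and gave a median logFC over all genes in glia of 0.125 and 0.177.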
